A study of Rattus norvegicus with 6 samples.

Results

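The non-collagen extracellular matrix of H9c2 cells, a rat myoblast line from embryonic heart, was examined in RNA-seq of WT and Nono-KO cells. The genes were chosen by name as matrix glycoproteins, proteoglycans and crosslinkers, and 46 of the 47 listed were among the 16319 gene symbols of the count table, while Fbn2 was not analysed here. WT cells carried an intact Nono gene. Nono-KO cells were transfected with a plasmid for Cas9, an sgRNA against Nono and puromycin resistance, and were selected to give a stable line with a frameshift deletion in the coding sequence. Each group had 3 libraries, given in the methods as biological replicates, and the study's scheme shows a single expanded Nono-KO clone. The p-values thus refer to variation among the libraries, and variation among clones was not measured. The sources used here do not say whether the sequenced WT cells received the pEGFP-N1 control plasmid.

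Total counts were 17612958 to 19253858 per library. Nono had 7329, 5884 and 5519 counts in WT against 109, 94 and 96 in Nono-KO libraries. WT replicate 1 stood apart from the other WT libraries on the second principal component (4.96% of the variance). For some genes the result without it is also given. Of 10 myoblast markers listed, 6 were analysed here, without Myf5, Myf6, Pax7 and Pax3. Myod1 had 2185 to 2658 counts in WT and 2662 to 2748 in Nono-KO. Cdh15 had 8422 to 10799 counts, Ncam1 5122 to 7368 and Mymk 81 to 306, whereas Chrna1 had only 2 to 13. Myog is given below. Of 10 cardiomyocyte markers, Tbx5, Ryr2, Nppa, Nppb, Tnni3 and Myh6 had at most 18 counts in any library, whereas Gata4 had 283 to 362, Nkx2-5 356 to 758, Tnnt2 269 to 2583 and Hand2 1275 to 1410.

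The extracellular matrix is the protein and polysaccharide network that cells secrete and attach to. Laminins, joined by nidogen and perlecan, form the sheet of the basement membrane, fibronectin and the elastic microfibrils form fibres in the interstitium, and proteoglycans carry sulfated sugar chains that bind water and growth factors. Matricellular proteins modulate adhesion without being structural, and lysyl oxidases crosslink collagen and elastin. Myoblasts and heart muscle cells are wrapped in basement membrane and attach to it through integrins, dystroglycan and syndecans.

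More of the matrix genes fell than rose in Nono-KO cells, and both directions occurred among the laminins, the matricellular proteins and the lysyl oxidases. Of 37 genes with enough counts to be tested, 18 fell, 7 rose and 12 did not pass (edgeR, Benjamini-Hochberg adjusted p below 0.05). The share that passed in either direction was 67.6%, against 72.2% of all 12028 genes tested, so the number of changes was near the background. The share that fell was 48.6%, against 38.1% of all genes, and the share that rose was 18.9%, against 34.2%. Over the 37 genes the median log2 fold change, Nono-KO over WT, was -0.25, against -0.049 over all genes tested. The study's thresholds for DEGs, which it applied with DESeq2, are an adjusted p below 0.01 and a change of more than 1 on the log2 scale. At these thresholds in the edgeR fit, 10 genes were down-regulated, against 18.7% of all genes, and 2 were up-regulated, against 10.8% of all genes. These 12 are 32.4% of the genes tested, against 29.5% of all genes. With DESeq2 at the same thresholds, a combination added after the data were seen, 11 genes (29.7%) passed, 9 lower and 2 higher, against 28.6% of all genes, and Nid1 (-0.97) was not among them. With the adjusted p relaxed to 0.05 in the edgeR fit, Fbln1 joined and 13 genes (35.1%) passed, against 30.3% of all genes. In 27 genes (73.0%) the libraries of the groups did not overlap, against 75.1% of all genes. In bulk RNA, fewer cells expressing a gene and less RNA per cell cannot be told apart.

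**Figure D1:**
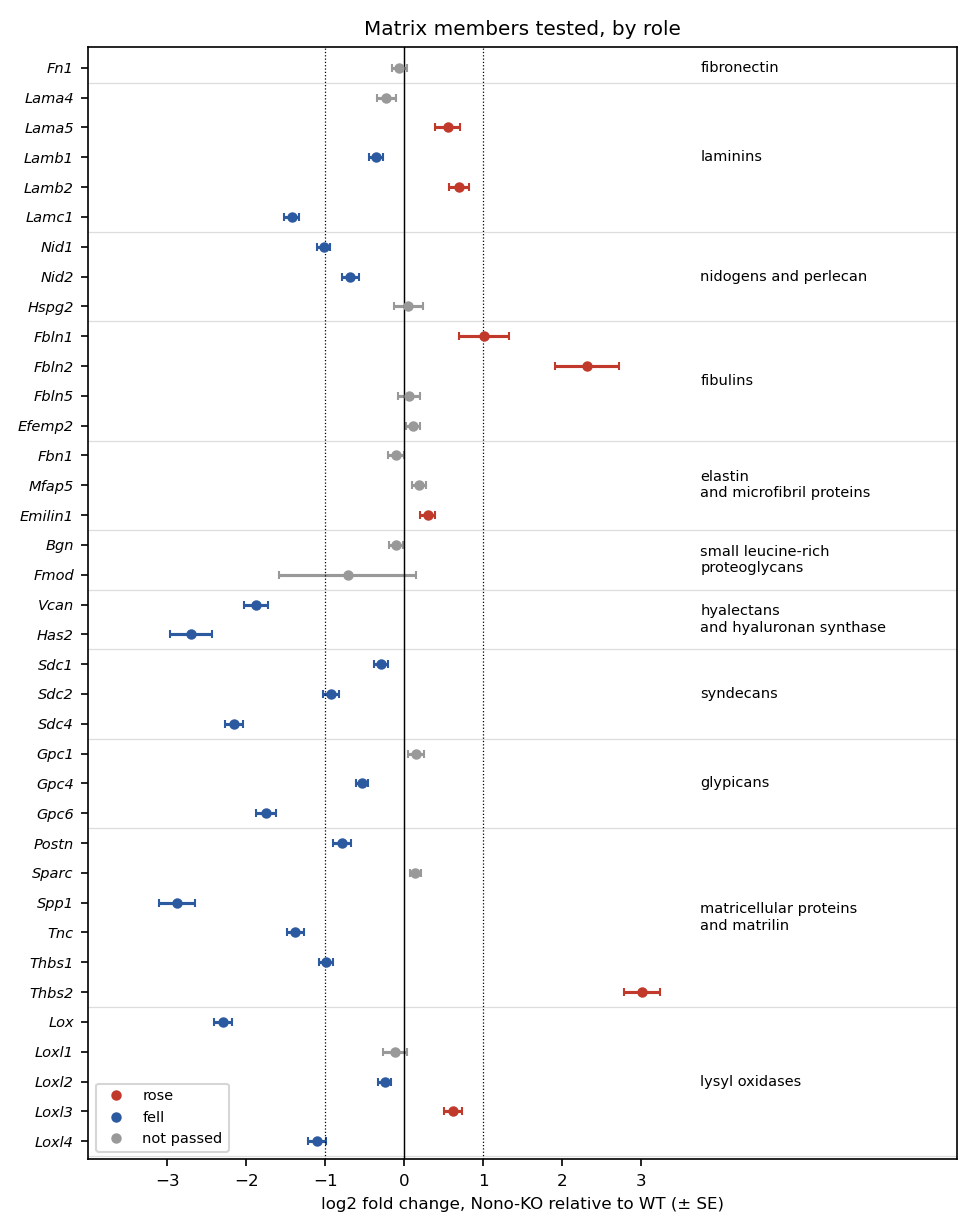
Log2 fold change with its standard error (horizontal axis, Nono-KO over WT) for the 37 matrix genes tested (vertical axis), grouped by role. Points are estimates, bars are standard errors, colours give the call and dotted lines stand at 1 and -1. Spp1 at -2.87 and Thbs2 at 3.01 are the ends of the range.

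Together the 46 genes took 3.94% to 4.34% of the counts in WT libraries, and 3.22% to 3.50% in Nono-KO. Their summed level was 37733, 38667 and 44062 CPM (counts scaled to library size with TMM factors) in the WT libraries and 34522, 36312 and 32006 CPM in the Nono-KO libraries. The groups did not overlap in this sum. Thrombospondin 1 (Thbs1) made up 65.3% of the difference between the group means and the laminin gamma 1 chain (Lamc1) 20.8%. Without these genes, singled out after their values were seen, the sums overlapped, at 28951 to 33304 CPM in WT and 27371 to 31681 CPM in Nono-KO. Of the 9 genes with a mean over 1000 CPM in WT, 5 did not pass, 3 fell (Lamc1, Thbs1 and the syndecan Sdc1) and Emilin1 rose. Of all genes tested 72.2% passed, and the share among all genes at this level was not computed.

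Upstream sequences of the genes were read for motifs of some of the factor families that the study named for regions of altered chromatin, namely TEAD, AP-1 and SMAD, while that of Mef2c, which it also named, was not searched. The 4 sequences shown hold the TEAD letters and belong to genes that moved in opposite directions. RefSeq promoter windows of the build GRCr8 matched 29 of the 46 symbols, and the 250 bases before the start of the transcript were searched on both strands. The counts were made on another build, and the windows were matched by symbol only. Capitals mark CATTCC or its reverse complement GGAATG, the core letters of the motif bound by TEAD factors.
Thbs1, chr3:125510000-125510249, plus strand: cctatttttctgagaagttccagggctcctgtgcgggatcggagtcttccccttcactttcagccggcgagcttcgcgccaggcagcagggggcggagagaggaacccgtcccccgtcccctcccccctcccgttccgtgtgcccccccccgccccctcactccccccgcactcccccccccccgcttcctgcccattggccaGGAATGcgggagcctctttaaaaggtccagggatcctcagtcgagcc
Lamc1, chr13:68051987-68052236, minus strand: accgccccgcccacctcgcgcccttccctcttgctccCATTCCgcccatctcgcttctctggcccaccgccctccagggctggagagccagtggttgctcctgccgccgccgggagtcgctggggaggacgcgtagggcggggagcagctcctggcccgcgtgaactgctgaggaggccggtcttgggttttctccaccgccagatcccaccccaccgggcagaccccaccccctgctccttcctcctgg
Nid1, chr17:93069036-93069285, plus strand: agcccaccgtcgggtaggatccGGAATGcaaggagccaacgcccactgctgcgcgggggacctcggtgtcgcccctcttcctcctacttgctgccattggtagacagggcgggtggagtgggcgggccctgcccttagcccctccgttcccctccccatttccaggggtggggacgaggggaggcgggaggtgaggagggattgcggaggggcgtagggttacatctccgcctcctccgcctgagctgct
Loxl3, chr4:117098108-117098357, plus strand: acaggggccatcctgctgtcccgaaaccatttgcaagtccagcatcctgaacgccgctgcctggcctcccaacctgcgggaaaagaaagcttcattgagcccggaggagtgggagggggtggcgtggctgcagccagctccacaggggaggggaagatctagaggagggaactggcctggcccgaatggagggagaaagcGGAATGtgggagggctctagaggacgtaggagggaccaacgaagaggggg

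The match begins 47 bases before the start in Thbs1, 213 in Lamc1, 228 in Nid1 and 50 in Loxl3. The letters CATTCC were in 7 of the 29 genes (24.1%), against 12.1% of all 33469 windows of this length. Thbs1, Lamc1 and Nid1 fell, Loxl3 rose, Sparc and Loxl1 did not pass and Acan was not tested. The AP-1 letters TGANTCA, which read the same on both strands, were in 0 of the 29 genes and in 6.34% of all windows. The SMAD letters GTCTG were in 16 genes (55.2%), against 42.9% of all windows, and the GC box GGGCGG was in 20 genes (69.0%), against 30.5%. The TATA box letters TATAAA were in Postn, Spp1, Tnc and Lama4, or 13.8%, against 12.9% of all windows. The first 3 of these fell and Lama4 did not pass. A match is a description of these windows and not a bound site. All windows include those of genes not tested here, and the differences in shares were not tested.

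Fibronectin, the adhesive glycoprotein read by several integrins, did not pass. Fn1 had 191517, 188740 and 212633 counts in WT against 172111, 197545 and 171387 in Nono-KO libraries. The groups overlapped, and the log2 change was -0.062 ± 0.10 (SE, adjusted p = 0.589).

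The laminin chains of H9c2 cells moved in opposite directions. A laminin is a trimer of an alpha, a beta and a gamma chain. The gamma 1 chain Lamc1, shared by most laminins, had 36514, 34576 and 39257 counts in WT against 12310, 14253 and 12523 in Nono-KO libraries. Every Nono-KO library was below every WT library, and the level went from 1949.9 ± 204 CPM (SD, n = 3) to 725 ± 65.3 CPM, a log2 change of -1.43 ± 0.10 (SE, adjusted p = 2.96e-07). The beta 1 chain Lamb1 fell by 0.36 on the log2 scale (adjusted p = 0.00346). The beta 2 chain Lamb2, typical of muscle and synaptic basement membrane, rose from 6344, 6691 and 8101 counts to 10706, 11925 and 10075 (0.70 ± 0.13 SE, log2 scale). The alpha 5 chain Lama5 had a log2 fold change of 0.55 (adjusted p = 0.01), with groups that overlapped. The adjusted p of Lama5 was 0.0531 without WT replicate 2 and 0.053 without the filter on low counts. The alpha 4 chain Lama4 did not pass (-0.23, adjusted p = 0.104), and passed without WT replicate 2 (-0.32, adjusted p = 0.0312). Without WT replicate 1, its highest library, the log2 fold change was -0.078 (adjusted p = 0.428). The alpha 2 chain Lama2, the main alpha chain of adult muscle, had 1 to 9 counts in every library and was not tested.

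Within a library, Lamb2 had 1.03, 1.22 and 1.37 counts per count of Lamb1 in WT and 2.61, 2.51 and 2.42 in Nono-KO. Lama5 had 0.325 to 0.430 counts per count of Lamc1 in WT and 1.40 to 1.60 in Nono-KO. Neither ratio overlapped between the groups. Counts were not divided by transcript length, so such a ratio compares groups and not the amounts of the chains, and the pairs were picked with the values known. For 3 libraries against 3, an exact two-sided permutation test of a single value cannot give a p under 0.1.

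The nidogens, which bridge laminin to collagen IV in the basement membrane, both fell. Nid1 had 8725, 9364 and 7983 counts in WT against 3740, 3993 and 4503 in Nono-KO libraries (-1.02 ± 0.09 SE, log2 scale, adjusted p = 1.15e-06). Nid2 fell by 0.68 on the log2 scale (standard error 0.11). Perlecan (Hspg2), the large heparan sulfate proteoglycan of the same sheet, had 22069, 25790 and 34749 counts in WT against 26763, 30836 and 24316 in Nono-KO libraries. It did not pass (0.051 ± 0.19 SE, log2 scale), and WT replicate 3 was the highest of all 6 libraries.

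**Figure D2:**
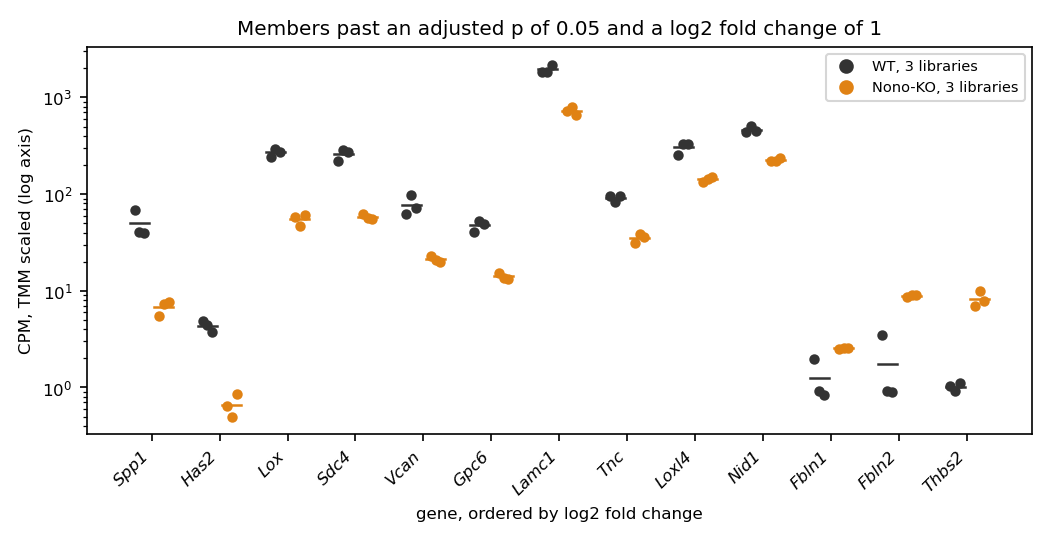
CPM after TMM scaling on a log axis (vertical) in each library for the 13 matrix genes that passed with a change of more than 1 on the log2 scale (horizontal). Points are libraries and bars are means of 3. Groups do not overlap in any of the 13, which were picked by their change in these same libraries, so the separation is no independent evidence. The share among all genes past the same cut was not computed.

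Among the fibulins, which link elastic fibres and basement membranes, the low-count Fbln1 and Fbln2 rose while the abundant Fbln5 and Efemp2 did not pass. Fbln2 had 70, 17 and 16 counts in WT against 149, 161 and 172 in Nono-KO libraries. The WT replicate 1 value was the highest in its group, and all Nono-KO values lay above it. The log2 change was 2.32 ± 0.40 (SE, adjusted p = 0.000371), and 3.30 without WT replicate 1. Fbln1 showed the same pattern, with 40, 17 and 15 counts against 43, 46 and 48. Its log2 change was 1.01 ± 0.32 (SE, adjusted p = 0.0134). It was 1.53 without WT replicate 1, and without WT replicate 3 the gene did not pass (0.79, adjusted p = 0.0589). Efemp2 (fibulin 4), needed for elastic fibre assembly with lysyl oxidase, had 10450, 8276 and 8872 counts in WT against 9221, 9691 and 9303 in Nono-KO libraries. Its groups overlapped, as did those of Fbln5 (log2 fold changes 0.11 and 0.059).

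The microfibril genes with counts stayed within a narrow range, from -0.11 to 0.30 on the log2 scale. Emilin1, a glycoprotein at the interface of elastin and microfibrils, had 30653, 23185 and 26141 counts in WT against 30119, 33357 and 29463 in Nono-KO libraries. After scaling, the groups did not overlap, at 1406 ± 149 and 1726 ± 151 CPM (SD, n = 3), and the gene rose (log2 fold change 0.30, adjusted p = 0.0164). This call was lost without WT replicate 2 (adjusted p = 0.0749), Nono-KO replicate 1 (0.0592) or Nono-KO replicate 2 (0.0812). Fibrillin 1 (Fbn1) did not pass (-0.11). Mfap5 (0.19, adjusted p = 0.0775) did not pass, but passed with DESeq2 (adjusted p = 0.0438), with DESeq2 size factors in edgeR (0.0343) and without WT replicate 2 (0.0361). Elastin itself (Eln) had 0, 1 and 1 counts in WT against 4, 4 and 2 in Nono-KO libraries, and Mfap2 and Mfap4 had at most 12 counts, so these 3 were not tested.

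The small leucine-rich proteoglycans, which bind collagen fibrils, were represented almost wholly by biglycan. Bgn had 63879, 51018 and 59890 counts in WT against 47437, 55182 and 51939 in Nono-KO libraries, with groups that overlapped (log2 fold change -0.10, adjusted p = 0.317). Decorin (Dcn), the major proteoglycan of fibroblasts, had 0 counts in 5 libraries and 1 count in Nono-KO replicate 3. Lumican (Lum) had 3, 4 and 9 counts in WT against 1, 0 and 0 in Nono-KO libraries. Fibromodulin (Fmod) had the largest standard error of the 37 genes tested, with 8, 106 and 122 counts in WT against 20, 71 and 49 in Nono-KO. It did not pass (-0.72, standard error 0.87), but fell without WT replicate 1 (-1.27, adjusted p = 0.00287). It is also 1 of the 2 genes that met the low-count filter in every library of a single group only, here Nono-KO.

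The large hyaluronan-binding proteoglycan versican and the synthase that makes hyaluronan both fell. Vcan had 1265, 1841 and 1302 counts in WT against 389, 376 and 376 in Nono-KO libraries (-1.88 ± 0.15 SE, log2 scale, adjusted p = 8.83e-07). Has2, the main hyaluronan synthase of mesenchymal cells, went from 98, 83 and 68 counts to 11, 9 and 16. No library of either gene reached the other group. Has2 had a log2 change of -2.70 ± 0.27 (SE), and it is the other gene that met the low-count filter in every library of a single group, here WT. Aggrecan (Acan), the cartilage relative of versican, had at most 3 counts in a library.

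All 3 syndecans tested fell. Syndecans are transmembrane heparan sulfate proteoglycans that act as coreceptors for matrix and growth factors. Sdc4, which localises to focal adhesions, had 4407, 5328 and 4879 counts in WT against 1054, 1026 and 1038 in Nono-KO libraries. The Nono-KO libraries lay close together and far below WT, at 57.9 ± 3.41 against 259 ± 34.7 CPM (SD, n = 3), a log2 change of -2.16 ± 0.11 (SE, adjusted p = 4.59e-08). Sdc2 fell by 0.92 on the log2 scale. The abundant Sdc1 fell by 0.29, from 39052, 30381 and 30577 counts to 25183, 26873 and 25241. Without Nono-KO replicate 3 the adjusted p of Sdc1 was 0.0732 (log2 fold change -0.21). Sdc3, the syndecan of nerve and muscle precursors, had 7, 2 and 1 counts in WT and 0 in all Nono-KO libraries, and was not tested.

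Glypicans carry heparan sulfate on a lipid anchor. Gpc6 had 815, 988 and 875 counts in WT against 261, 246 and 250 in Nono-KO libraries (-1.75 ± 0.12 SE, log2 scale, adjusted p = 3.57e-07), and the groups were well separated. Gpc4 fell by 0.54 (standard error 0.08). The abundant Gpc1 did not pass, with 61128, 48084 and 55791 counts against 60194, 58345 and 54259 (0.15, adjusted p = 0.201). Without Nono-KO replicate 3 it passed as higher (0.25, adjusted p = 0.0395). Within a library, Sdc4 had 0.113 to 0.175 counts per count of Sdc1 in WT and 0.0382 to 0.0419 in Nono-KO. Gpc6 had 0.0133 to 0.0205 counts per count of Gpc1 in WT and 0.00422 to 0.00461 in Nono-KO.

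**Figure D3:**
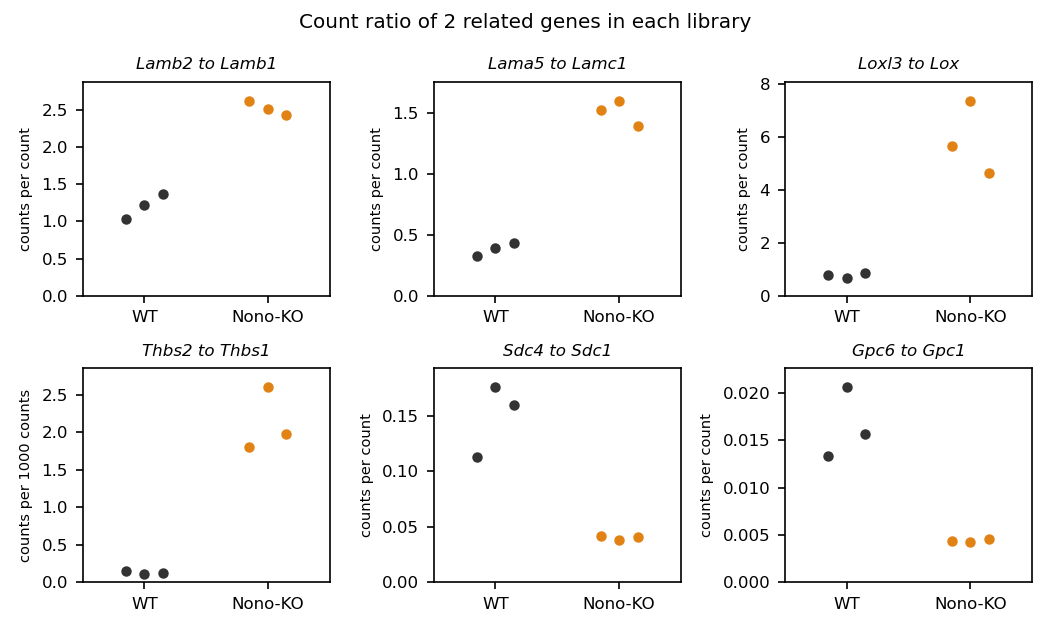
Count of a gene divided by the count of a related gene in the same library (vertical axes, from 0) for 6 pairs in WT and Nono-KO cells, with 1 point per library. In the 6 pairs shown, picked with the values known, the groups do not overlap. Of the further pairs computed, Nid1 to Nid2 overlapped (0.759 to 1.16 in WT, 0.685 to 0.779 in Nono-KO) and the others did not. The share among all gene pairs was not computed. Lamb2 to Lamb1, Lama5 to Lamc1, Loxl3 to Lox and Thbs2 to Thbs1 are higher in Nono-KO, and Sdc4 to Sdc1 and Gpc6 to Gpc1 are lower.

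The matricellular genes held the largest changes of the list in both directions. Osteopontin (Spp1), a secreted integrin ligand, had 1385, 766 and 713 counts in WT against 93, 130 and 145 in Nono-KO libraries. WT replicate 1 was the highest, and all WT libraries were above all Nono-KO libraries. The log2 change was -2.87 ± 0.23 (SE, adjusted p = 1.25e-06), a 7.33-fold lower level, and it was -2.57 without WT replicate 1. Thrombospondin 2 (Thbs2), an inhibitor of angiogenesis, went the other way, from 21, 17 and 20 counts to 120, 179 and 148. This is an 8.05-fold higher level (3.01 ± 0.23 SE, log2 scale, adjusted p = 5.25e-07), at a mean of 8.27 CPM in Nono-KO.

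Thbs1, which can activate latent TGFβ, had 135906, 147127 and 154096 counts in WT against 66472, 68942 and 74992 in Nono-KO libraries. The groups were far apart, and the log2 change was -0.99 ± 0.09 (SE, adjusted p = 2.1e-06). Per 1000 counts of Thbs1, Thbs2 had 0.116 to 0.155 counts in WT and 1.81 to 2.60 in Nono-KO. Tenascin C (Tnc), an anti-adhesive glycoprotein of embryonic and injured tissue, had 1925, 1567 and 1709 counts in WT against 531, 696 and 674 in Nono-KO libraries (-1.38, standard error 0.10). Periostin (Postn), a collagen-associated protein of activated fibroblasts, fell by 0.79 on the log2 scale. Sparc, a collagen-binding glycoprotein, did not pass (0.14, adjusted p = 0.0999). Its scaled Nono-KO libraries were all above WT, and with DESeq2 it passed (0.19, adjusted p = 0.0419). Matn2, a matrilin, had at most 4 counts in a library.

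The lysyl oxidases, copper enzymes that start collagen and elastin crosslinks, changed unequally. Lox had 4886, 5495 and 4917 counts in WT against 984, 848 and 1149 in Nono-KO libraries. The groups did not overlap, and the level went from 270.2 ± 25.5 to 55.2 ± 7.12 CPM (SD, n = 3), a 4.89-fold decrease (-2.29 ± 0.11 SE, log2 scale, adjusted p = 4.17e-08). Loxl4 had 5053, 6212 and 5990 counts in WT against 2261, 2563 and 2860 in Nono-KO (-1.10, standard error 0.11). Loxl3 rose, from 3787, 3706 and 4258 counts to 5588, 6245 and 5319 (0.62, standard error 0.11, adjusted p = 0.000305). Loxl3 thus had 0.674 to 0.866 counts per count of Lox in WT and 4.63 to 7.36 in Nono-KO.

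Loxl1, which acts on elastic fibres, had 9739, 13071 and 14401 counts in WT against 10668, 11706 and 10566 in Nono-KO libraries. Its groups overlapped (-0.11, adjusted p = 0.521), and without WT replicate 1 it passed as lower (-0.30, adjusted p = 0.00951). Loxl2 fell by 0.25 on the log2 scale (adjusted p = 0.0134). The Loxl2 call was lost with the replicate number as a block (adjusted p = 0.0551), with DESeq2 (0.0513), with DESeq2 size factors in edgeR (0.0547), without Nono-KO replicate 1 (0.0718) and without Nono-KO replicate 2 (0.096).

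In all, 9 of the 46 genes had too few counts to be tested, with at most 12 counts in a library. They were Lama2, Eln, Mfap2, Mfap4, Dcn, Lum, Acan, Sdc3 and Matn2. When no filter was applied, Lum (adjusted p = 0.00704) and Sdc3 (adjusted p = 0.0143) passed as lower in Nono-KO, and the other 7 did not pass. Of the 12 tested genes that did not pass, 6 had a positive and 6 a negative log2 fold change, between -0.72 and 0.19.

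Of 137 other genes that build, modify or bind the matrix, tested in 6 lists, 56 fell (40.9%) and 47 rose (34.3%), which is near the 38.1% and 34.2% of all genes tested. Among 37 other matrix glycoproteins, 14 fell (37.8%) and 12 rose (32.4%), also near those shares (median log2 fold change -0.042). Slit2, a secreted guidance ligand, fell by 2.70 (standard error 0.09), and Ntn4, a laminin-related netrin, rose by 1.38 (standard error 0.11). Tnn, of the tenascin family, rose by 1.97 (standard error 0.14). Srpx2 had 2027, 421 and 366 counts in WT against 88, 92 and 114 in Nono-KO libraries, and WT replicate 1 was the highest. Its log2 fold change was -3.14 (adjusted p = 0.0177), and -1.98 without WT replicate 1. It did not pass with the replicate number as a block (adjusted p = 0.0711), without Nono-KO replicate 1 (0.0932) or without Nono-KO replicate 2 (0.0986).

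Of 12 genes for the synthesis, binding and turnover of hyaluronan other than Has2, 7 rose (58.3%, against 34.2% of all genes) and 4 fell (33.3%, against 38.1%), with a median of 0.86. Among those that rose, Hyal1, Cemip, Stab1 and Tnfaip6 had means of only 0.97 to 3.31 CPM in Nono-KO. The summed level of the list was lower in Nono-KO, at 440 to 481 CPM against 1064 to 1290 CPM in WT, most of it from Cd44. Cd44, the main hyaluronan receptor, had 17305, 20406 and 16529 counts in WT against 4476, 4224 and 5098 in Nono-KO libraries (-1.90, standard error 0.10). Cemip2, a cell surface protein of hyaluronan breakdown, fell by 1.99. The link proteins Hapln3 (2.04) and Hapln4 (1.56), which fasten proteoglycans to hyaluronan, rose. The other synthases Has1 and Has3 had at most 7 counts in a library. Among 8 other proteoglycans tested, 4 rose (50%, against 34.2% of all genes), each under 5 CPM, and 2 fell (25%, against 38.1%), Cd44, which is on both lists, and the betaglycan gene Tgfbr3 (-1.26).

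Of 34 genes for the synthesis of heparan and chondroitin sulfate, the sugar chains of syndecans, glypicans and versican, 17 fell (50%, against 38.1% of all genes) and 12 rose (35.3%, against 34.2%), with a median of -0.44. Chondroitin synthase Chsy1 fell by 2.14 and the chondroitin sulfotransferase Chst11 by 1.93 on the log2 scale. Extl1, of the exostosin family, rose by 2.95, from 10, 17 and 23 counts to 129, 130 and 112, and Papss2, which makes the sulfate donor, by 1.42. Of 23 genes of collagen folding and crosslinking, 8 rose (34.8%, against 34.2% of all genes) and 7 fell (30.4%, against 38.1%), with a median of 0.036. The copper transporter Atp7a, which loads lysyl oxidases with copper, had 104, 177 and 123 counts in WT against 47, 38 and 35 in Nono-KO libraries (-1.68, standard error 0.26). Tll1, a protease of the Bmp1 family, fell by 0.73, while Adamts14 (0.66) and P3h4 (0.57) rose.

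Of 24 matrix receptors, 13 fell (54.2%, against 38.1% of all genes) and 4 rose (16.7%, against 34.2%), with a median of -0.35. The low share that rose depended on the tool. With DESeq2, Itga5 (adjusted p = 0.0175), Ddr1 (0.00996) and Mrc2 (0.0299) also passed as higher, and Dag1 (0.0772) no longer passed as lower. Itgb1, the beta chain shared by most receptors for laminin, fibronectin and collagen, had 14735, 16121 and 15006 counts in WT against 4111, 4196 and 5272 in Nono-KO libraries (-1.69, standard error 0.10). Itga1, of a collagen and laminin receptor, fell by 2.95. Itgb4, of the laminin receptor of hemidesmosomes, rose from 76, 79 and 90 counts to 838, 941 and 894 (3.52, standard error 0.13). Itga11, a collagen receptor chain, had 4117, 1506 and 1704 counts in WT against 4940, 5226 and 4848 in Nono-KO (1.14, adjusted p = 0.0252). Itga11 did not pass without the low-count filter (0.0866), without WT replicate 2 (0.0606) or 3 (0.063), or without Nono-KO replicate 1 (0.115) or 2 (0.123).

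**Figure D4:**
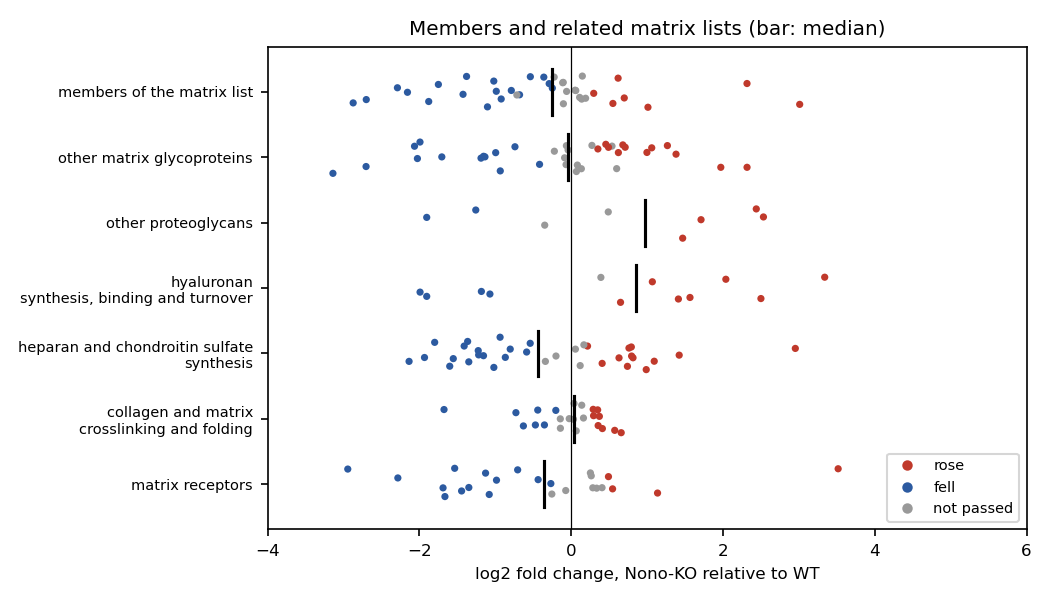
Change on the log2 scale, Nono-KO over WT (horizontal axis), for each tested gene of the matrix list and of 6 related lists (vertical axis). Each point is a gene with its call as colour, vertical scatter within a list is arbitrary, and bars are medians, from -0.44 for heparan and chondroitin sulfate synthesis to 0.98 for other proteoglycans. Slit3, with 15, 43 and 36 counts in WT and 0 in Nono-KO libraries, lies outside the axis.

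Markers of other cell types moved with the genotype in part. Among all genes tested 34.2% rose and 38.1% fell, and the marker lists are too short to compare closely with these shares. Of 10 smooth muscle markers 6 rose and 3 fell, and Myocd was among those that fell (-1.62 on the log2 scale). Their summed level was 7102 to 7968 CPM in WT libraries and 14971 to 16010 CPM in Nono-KO, most of it from Acta2 and Tagln. Fibroblast markers, 11 of 13 in the table, summed to 38131 to 46058 CPM in WT and 29784 to 35002 CPM in Nono-KO, of which most was Col1a1 and Col1a2, and 2 rose and 4 fell of the 8 tested. Besides these collagens, Col3a1 (58946 to 82109 counts), Pdgfrb (6921 to 11822), Thy1 (6479 to 8774) and S100a4 (6333 to 12171) were abundant in every library, Col6a3 had 668 to 1901 and Twist2 71 to 151 counts, and Pdgfra, Dpt and Pi16 had at most 7. Endothelial markers summed to 160 to 286 CPM in WT and 41.0 to 43.1 CPM in Nono-KO, nearly all from Flt1. Vwf had 74, 51 and 78 counts in WT against 12, 13 and 21 in Nono-KO, with Pecam1 at most at 3 counts and Kdr at most at 1. Macrophage markers summed to 3.45 to 6.47 CPM in WT and 1.46 to 2.12 CPM in Nono-KO. Csf1r had 105, 62 and 51 counts in WT against 18, 20 and 18 in Nono-KO and fell. Cd68 had 4 to 25 counts, and Aif1 and C1qa had at most 1 count. Myog, a factor of myoblast differentiation, had 93, 142 and 131 counts in WT against 1695, 2106 and 1898 in Nono-KO. Of 5 myoblast markers tested, 2 rose, and the list summed to 901 to 1040 CPM in WT and 1130 to 1189 CPM in Nono-KO. Of 5 cardiomyocyte markers tested, 1 rose, and the list summed to 118 to 203 CPM in WT and 252 to 275 CPM in Nono-KO. The part of these shifts in the matrix results was not tested.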

How the data were processed

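RNA-seq was made from 3 WT and 3 Nono-KO libraries of H9c2 cells, prepared as stranded mRNA libraries and mapped to groups by the submitters' sample titles. The authors deposited raw counts per gene symbol, without scaling or pooling, and the 6 files of single libraries held the same values as their table. According to the submitters' notes, reads were trimmed with Trimmomatic and handled with HISAT2 and HTSeq on mRatBN7.2, but the study's methods give Bowtie2 and Rn6. Annotation and strand setting: not given in the sources used here, so reads of paralogs or overlapping genes may be split.

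Counts were analysed in R 4.3.3 with edgeR 4.0.16 (TMM scaling, default filterByExpr filter, robust quasi-likelihood test, Benjamini-Hochberg adjustment over all 12028 genes tested). A gene rose or fell where its adjusted p was below 0.05. The standard error was taken as |log2 fold change| over the root of F. Genes near the count minimum have imprecise fold changes. Alternatives were DESeq2 1.42.0, other scalings and filters, the replicate number as a block and leaving out each library.

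The members and lists were chosen with earlier results of these data known. All members are accounted for. Counts per library are given for members that passed with a change of more than 1 on the log2 scale, for members carried by a single group through the filter, and for the most abundant member of each role. Related lists are named by up to 2 genes per direction with at least 5 CPM. Other genes were named after their values were seen.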

Additional observations from a re-analysis of the deposited data

How the results depend on the processing

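Over 6 fits that each left out a library, 6 to 8 matrix genes rose and 17 to 20 fell, the median log2 fold change was -0.32 to -0.21, and in the related lists 42 to 50 rose and 51 to 57 fell. These fits tested 12146 to 12202 genes in all, of which 3766 to 4366 rose and 4105 to 4761 fell. Under the rule for DEGs, 2 of 37 members were higher and 10 lower. In the related lists 17 of 137 genes were higher and 36 lower. The shares of all genes tested were 10.8% higher and 18.7% lower. With DESeq2 and that rule, added after the data were seen, 2 members were higher and 9 lower (29.7% together, against 28.6% of all genes). The median of the members was -0.20 with DESeq2 size factors, -0.20 with DESeq2, -0.31 with total counts only and -0.27 without a filter. Over all genes tested, the medians in the same order were 0.0032, 0.0030, -0.11 and 0.034. The main fit gave -0.25 for the members and -0.049 for all genes. The other scalings and DESeq2 thus moved both medians the same way. Without a filter, which tested 16319 genes, the median of the members went down and that of all genes up. Direction turned for 5 genes, none of which passed where it did. With total counts only, Hspg2 was at -0.00019. With 1 library left out, Hspg2 ranged from -0.13 (without WT replicate 1) to 0.29, with -0.027 without Nono-KO replicate 2. Fn1 ranged from -0.13 to 0.041 (0.028 without WT replicate 3), Fbln5 from -0.12 to 0.15, Fbn1 from -0.21 to 0.00027 and Loxl1 from -0.30 to 0.042. The cause was not tested. Matched replicate numbers gave no sign of pairing (correlation of deviations 0.0455, -0.165 and -0.192, against -0.125 to 0.251 for unmatched numbers). So few values cannot settle whether the libraries were paired. With the replicate block 7 members rose and 17 fell, with Loxl2 the only call lost. Of all 12028 genes, 3944 rose and 4443 fell in that fit. Among related lists, 7 of 24 matrix receptors were higher with DESeq2 against 4 in the main fit. Of all 12028 genes, 4181 were higher with DESeq2 against 4108. Depth limits genes with few counts.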
